A study of Mus musculus with 12 samples.

Results

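The genes described are 8 secreted products of the Paneth cell, namely Lyz1, Mmp7, Ang4, Itln1, Mptx2, Defa17, Defa24 and Defa30, out of 54838 genes counted in the mouse ileum. They were chosen by name, as the rows whose Ensembl identifiers carry these symbols, and all 8 were among the 15938 genes with enough counts to be tested. RNA of whole ileum pieces was sequenced from 12 C57BL/6J mice, 3 in each of 4 groups. Water + PBS mice drank normal water for 7 days and received PBS alone. ZnSO4 + PBS mice drank 25 mM ZnSO4 over the same period and received PBS. Water + Dex mice drank normal water and received 200 µg of the glucocorticoid dexamethasone (Dex), and ZnSO4 + Dex mice had both treatments. All animals shared the strain and were sampled 2 h after the injection, so Dex had acted for 2 h and the drinking water for 7 days. The total counts lay between 10760132 and 11827487 per mouse, and the 8 genes took from 1.23% to 3.19% of them.

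Paneth cells sit at the base of the small intestinal crypts, between the stem cells, and release granules into the crypt lumen. The granules hold antimicrobial peptides and proteins, and they are rich in zinc, which the transporter ZnT2 (Slc30a2) loads into them. The same cells supply the neighbouring stem cells with growth signals such as Wnt3, Egf and the Notch ligand Dll4. In mice, the alpha-defensins are made as inactive precursors and are cut into active peptides by the metalloproteinase matrilysin (Mmp7), itself a zinc enzyme.

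The alpha-defensins form a cluster of near-identical copies on chromosome 8, and the copies set what a read count can say about them. The coding sequences of Defa17, Defa24 and Defa30, without the stop codon, each had 279 bases and differed at 12 positions, given 5′ to 3′ with the bases that vary between the 3 genes in capitals (GENCODE M21 transcripts, GRCm38, plus strand, 2 exons each, within chr8:21655780-21656735, chr8:21734494-21735471 and chr8:21134642-21135598 respectively). They are printed to show how few coding bases differ between these 3 genes. A read over a capital can still match another copy of the family, and the untranslated exon parts are not shown.
Defa17: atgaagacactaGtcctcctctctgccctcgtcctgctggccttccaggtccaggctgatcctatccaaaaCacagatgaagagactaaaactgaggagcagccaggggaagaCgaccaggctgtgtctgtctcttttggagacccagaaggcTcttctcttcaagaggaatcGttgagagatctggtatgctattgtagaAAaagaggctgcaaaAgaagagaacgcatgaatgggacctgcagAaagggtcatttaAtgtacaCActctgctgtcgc
Defa24: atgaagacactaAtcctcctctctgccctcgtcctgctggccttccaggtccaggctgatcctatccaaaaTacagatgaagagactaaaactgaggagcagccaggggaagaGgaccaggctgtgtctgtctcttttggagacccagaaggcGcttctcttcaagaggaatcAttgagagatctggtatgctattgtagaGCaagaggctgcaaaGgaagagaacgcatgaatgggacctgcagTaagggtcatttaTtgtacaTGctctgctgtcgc
Defa30: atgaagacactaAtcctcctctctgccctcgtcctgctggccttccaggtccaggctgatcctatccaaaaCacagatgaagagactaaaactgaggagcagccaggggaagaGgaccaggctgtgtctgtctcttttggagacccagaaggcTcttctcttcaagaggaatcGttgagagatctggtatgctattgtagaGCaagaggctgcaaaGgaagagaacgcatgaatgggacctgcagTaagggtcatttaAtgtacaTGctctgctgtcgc
Defa24 and Defa30 shared 98.6% of these bases, Defa17 and Defa30 97.1%, and Defa17 and Defa24 95.7%. Reads that mapped to more than 1 place had been left out of the counts. Of all stretches of 75 bases in the transcripts of Defa17, 91.3% also occurred in another gene, most often Defa3. The share was 20.7% for Defa30 and 6.67% for Defa24. The count of Defa17 therefore came from a small part of its transcript, and levels of single defensin copies are uncertain. For the other members it was 10.1% for Mptx2 (with Mptx1), 6.22% for Lyz1 (with Lyz2), 5.03% for Mmp7, 0.787% for Ang4 and 0% for Itln1. By this measure Mptx2 was thus no more distinct than Defa24. With stretches of 31 bases the share was 57.1% to 93.2% for the 3 defensins and 3.8% to 34.2% for the other members. The Mmp7 transcripts overlapped those of AV064505 on the opposite strand over 11.5% of their exon bases. The strand setting of the counting is not given in the sources used here, so reads in that overlap cannot be assigned to one of the pair.

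All 8 genes were read in every mouse. Scaled for exon length, as reads per kilobase on the scale of normalised counts (counts divided by the effective library size and multiplied by its mean), Defa24 was the highest at 152339 ± 38844 (SD, n = 12). Defa30 followed at 76919 ± 15862 and Lyz1 at 74412 ± 22515, and these 2 genes did not differ beyond their spread. Itln1 stood at 26301 ± 7674. Ang4 (10901 ± 3280), Mptx2 (8020.0 ± 4248) and Defa17 (7942 ± 1766) overlapped, and Mmp7 was the lowest at 2820.2 ± 849. These values divide by the full exon length, stretches shared with other genes included, in which reads with more than 1 position were not counted. The places of the defensins in this order, that of Defa17 above all, are therefore uncertain. Of the 8 genes, Mptx2 had the widest range over the 12 mice, 6.18-fold from the lowest to the highest mouse, against 1.89-fold to 2.83-fold for the others.

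**Figure D1:**
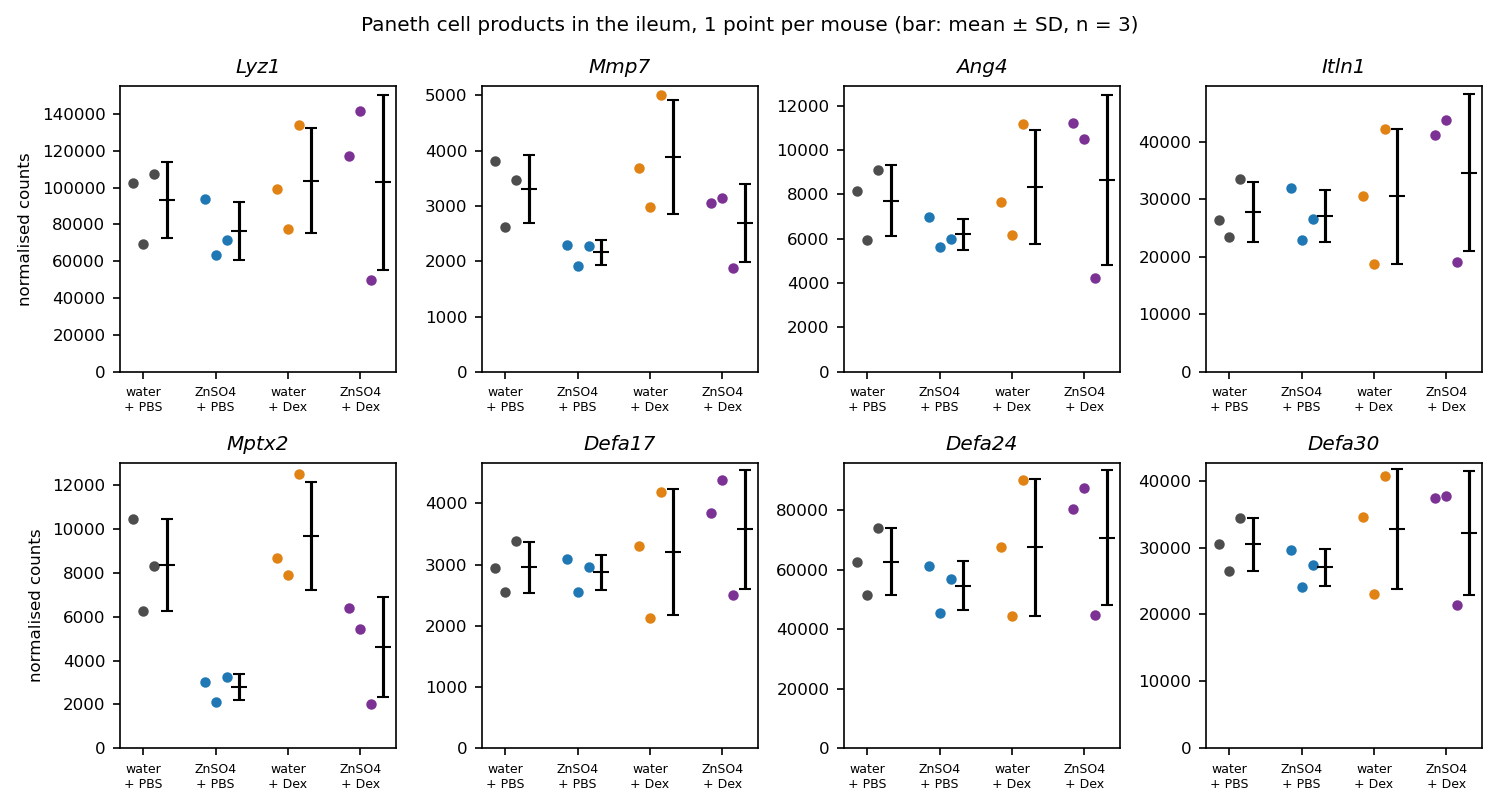
Normalised counts of the 8 genes (y axis, from 0) in each mouse of the 4 groups (x axis). Points are mice and the bar beside them is the mean ± SD of 3 mice. Mptx2 is lower in both ZnSO4 groups than in the water group with the same injection, with no overlap, while the points of Lyz1, Ang4, Itln1 and the 3 defensins overlap between water and ZnSO4 mice.

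Mptx2 encodes a mucosal pentraxin, a secreted protein of the same family as C-reactive protein. The gene lies on the minus strand of chromosome 1 (173274382 to 173277777, mm10) and has 2 exons. Its normalised counts were 10475, 6260 and 8328 in the water + PBS mice and 3020, 2118 and 3235 in the ZnSO4 + PBS mice. The groups did not overlap, and the lowest control was above the highest zinc mouse. A separation of the 3 mice from the other 3 was seen for 25.3% of all tested genes, so separation alone is common among all genes. With an LFC (log2 fold change) of -1.58 (SE 0.37), Mptx2 fell 2.99-fold with zinc in the PBS mice, and its adjusted p was 0.034 (edgeR's quasi-likelihood test, Benjamini-Hochberg over all tested genes). It was the only member of the 8 to pass an adjusted p of 0.05 with an LFC above 0.8 in size, a call that 1.70% of all tested genes reached in this comparison (0.954% in the lower direction). The call was lost without water + PBS mouse 1 (adjusted p = 0.12 in the same edgeR test), without water + PBS mouse 3 (0.070), without any one of the ZnSO4 + PBS mice (0.088 to 0.093) and without water + Dex mouse 1 (0.052), and the LFC stayed between -1.75 and -1.37 when any 1 of the 12 mice was left out.

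In Dex-treated mice the counts of Mptx2 were 8706, 7902 and 12518 with water and 6382, 5443 and 2027 with ZnSO4. Here too the groups did not overlap, which held for 25.9% of all tested genes. The LFC of -1.07 (SE 0.36) had an adjusted p of 0.13 in edgeR and was not called, in a comparison where 1.90% of the genes were. The lowest of these values came from ZnSO4 + Dex mouse 3, in which the 8 genes together made up 1.23% of the counts, against 2.59% and 3.19% in the other mice of its group. Without that mouse the LFC was -0.72 (SE 0.26), again not called. The zinc effects in PBS and in Dex mice differed by 0.51 on the log2 scale (SE 0.51, 95% interval -0.60 to 1.62, adjusted p = 0.96 for the interaction in edgeR). Whether Dex changes the zinc effect on Mptx2 was thus not resolved with 3 mice per group. No gene passed the interaction test in edgeR (0.00% of 15938 tested, with 794 genes or 4.98% at an unadjusted p under 0.05), and DESeq2 called 0 of the 8 members.

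Averaged over both injections in the same model, Mptx2 fell 2.51-fold with zinc (LFC -1.33, SE 0.26, adjusted p = 0.0063 in edgeR). The 6 water mice lay between 6260 and 12518 normalised counts and the 6 ZnSO4 mice between 2027 and 6382, so these sets of 6 overlapped at their edges (4.98% of all genes did not overlap). No other member was called, and 2.71% of all genes were, 1.63% in the lower direction. The 2 comparisons averaged here share no mouse, but the average shares all its mice with them. This call held in all 22 alternative settings, with an LFC between -1.49 and -1.15.

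**Figure D2:**
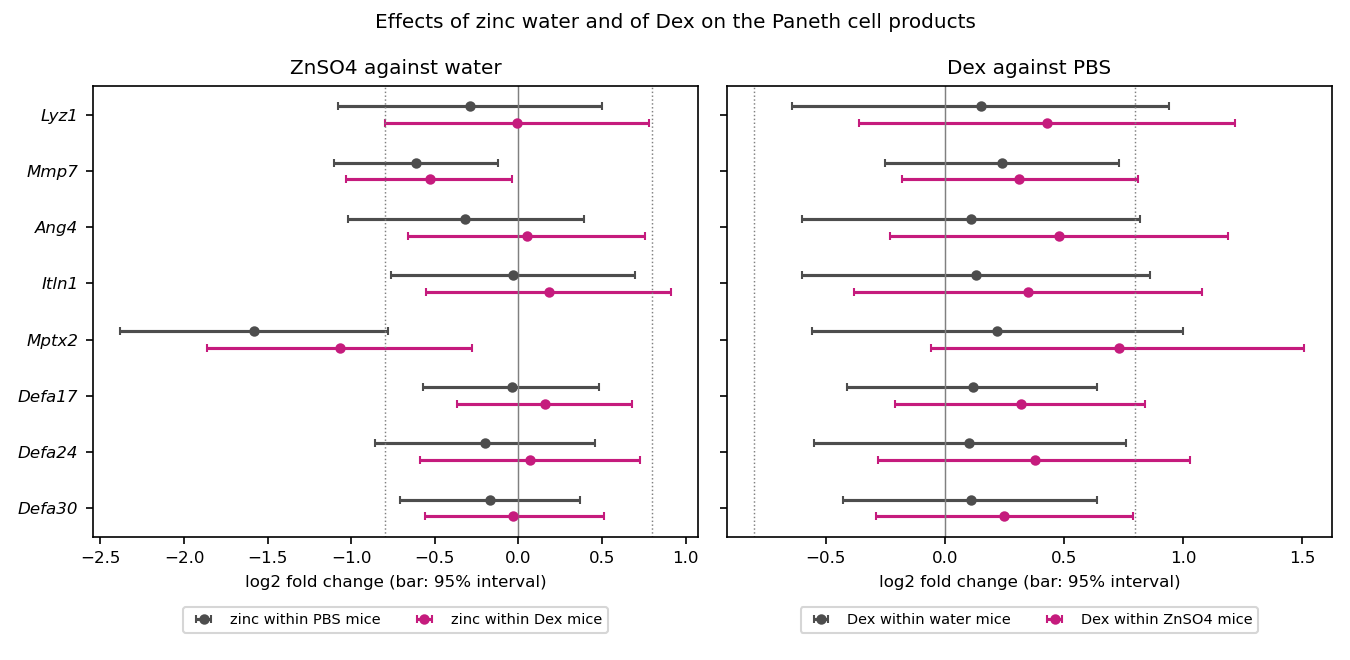
LFC (x axis, log2 scale) with 95% interval for each of the 8 genes (y axis), for ZnSO4 against water (left) and Dex against PBS (right). Dotted lines mark an LFC of 0.8 in size. The intervals of Mptx2 and Mmp7 for zinc lie below 0 in both PBS and Dex mice, those of the other 6 genes include 0, and all intervals for Dex include 0.

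Mmp7 lies on the plus strand of chromosome 9 (7692090 to 7699585, 6 exons). Its normalised counts were 3817, 2617 and 3476 in water + PBS mice and 2301, 1907 and 2282 in ZnSO4 + PBS mice. These groups did not overlap, which held for 25.3% of all tested genes. The Dex mice had 3679, 2985 and 5014 with water and 3053, 3137 and 1875 with ZnSO4, and here the groups overlapped. The LFC for zinc was -0.61 (SE 0.23, adjusted p = 0.16 in edgeR) in PBS mice and -0.53 (SE 0.23, adjusted p = 0.22) in Dex mice. Over both injections Mmp7 was 1.49-fold lower in the fit, with an LFC of -0.57 (SE 0.16) and an adjusted p of 0.037 in edgeR's test. It was not called, since its LFC was under 0.8 in size. An adjusted p under 0.05 of any size was reached by 12.8% of all genes here. Leaving out any 1 of the 12 mice gave an LFC between -0.64 and -0.45 and an adjusted p between 0.027 and 0.085 (edgeR), above 0.05 in 8 of the 12 cases.

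Lysozyme P (Lyz1), which cuts bacterial cell walls, is encoded on chromosome 10 (117287797 to 117292868, minus strand). It had 102657, 69299 and 107581 normalised counts in water + PBS mice, 93837, 63553 and 71763 in ZnSO4 + PBS mice, 99170, 77516 and 133986 in water + Dex mice and 117024, 141366 and 50036 in ZnSO4 + Dex mice. The 4 groups overlapped throughout. The lowest and the highest value of all 12 mice both came from the ZnSO4 + Dex group. Its LFC for zinc over both injections was -0.15 (95% interval -0.71 to 0.41), which includes 0 and does not exclude a change as large as that fitted for Mmp7. Whole ileum was used, so fewer Paneth cells and less RNA per Paneth cell cannot be told apart for any of these genes.

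Angiogenin 4 (Ang4), a ribonuclease of the granules (chromosome 14, 51763878 to 51773590, minus strand), had group means of 7722 ± 1618, 6205 ± 696, 8341 ± 2583 and 8646 ± 3830 normalised counts (SD, n = 3 each) in water + PBS, ZnSO4 + PBS, water + Dex and ZnSO4 + Dex mice. Itln1, a lectin that binds microbial sugars (chromosome 1, 171518122 to 171535294, minus strand), had 27784 ± 5249, 27139 ± 4513, 30498 ± 11733 and 34615 ± 13570 in the same order. Both pairs of zinc groups overlapped for these 2 genes. Over both injections the LFC for zinc was -0.13 (95% interval -0.63 to 0.37) for Ang4 and 0.07 (-0.44 to 0.59) for Itln1.

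The 3 defensins had the smallest ratios of the highest to the lowest of the 12 mice, from 1.89 to 2.05. Defa24 had 62694 ± 11265, 54493 ± 8220, 67407 ± 22834 and 70727 ± 22755 normalised counts in the same order of groups. Defa30 had 30457 ± 3956, 27042 ± 2746, 32760 ± 8936 and 32195 ± 9291, and Defa17 had 2956 ± 412, 2872 ± 287, 3208 ± 1029 and 3575 ± 971. The LFC for zinc over both injections was -0.07 (95% interval -0.53 to 0.40), -0.10 (-0.48 to 0.28) and 0.06 (-0.31 to 0.43) for Defa24, Defa30 and Defa17. None of the 6 members other than Mptx2 and Mmp7 had an interval that left out 0.

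None of the 8 genes was called for Dex, in water mice (4.42% of all tested genes called), in ZnSO4 mice (5.81%) or over both (6.31%). All 8 estimates were above 0, from 0.10 to 0.24 in water mice and from 0.25 to 0.73 in ZnSO4 mice, with medians of 0.13 and 0.36 against -0.01 and 0.01 over all genes. The 8 genes moved together from mouse to mouse, so their shared sign does not amount to 8 independent observations. At an unadjusted p under 0.05 in edgeR the count was also 0 of 8 in each of these comparisons, where 22.7%, 26.3% and 33.4% of all genes passed, and DESeq2 called 0 as well. These comparisons share mice with those of zinc, and the zinc comparison in PBS mice and the Dex comparison in water mice use the same 3 controls. With the mean of the B cell markers as a covariate, 5 of the 8 estimates in water mice were below 0 (-0.08 to -0.02), and none was called. The largest estimate was that of Mptx2 in ZnSO4 mice (LFC 0.73, SE 0.36, adjusted p = 0.23 in edgeR), which was 0.34 with that covariate. Without ZnSO4 + Dex mouse 3, Mptx2 (LFC 1.08, adjusted p = 0.019 in edgeR) and Ang4 (LFC 0.80, adjusted p = 0.049) passed the call in ZnSO4 mice, so this single animal decided whether Dex called any member there.

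The members moved together from mouse to mouse. Within the groups, the deviations of log2 CPM from the group mean had Pearson correlations of 0.79 to 0.993 and Spearman correlations of 0.769 to 1 over the 12 mice for all 28 pairs. Exact permutation tests within groups gave p from 7.7e-04, the smallest that the 1296 arrangements allow, up to 0.015 for Pearson's r and 0.023 for Spearman's rho. After Benjamini-Hochberg adjustment over the 28 pairs, p lay between 0.0022 and 0.015 for r and between 0.0022 and 0.023 for rho. With the 2 mice farthest from the median left out, r was between 0.722 and 0.984. The points of a pair share the library and the piece of ileum. Without regard to the groups, r of Mptx2 with the other 7 genes was between 0.381 (Defa17) and 0.955 (Mmp7), and r among those 7 was between 0.578 and 0.984.

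**Figure D3:**
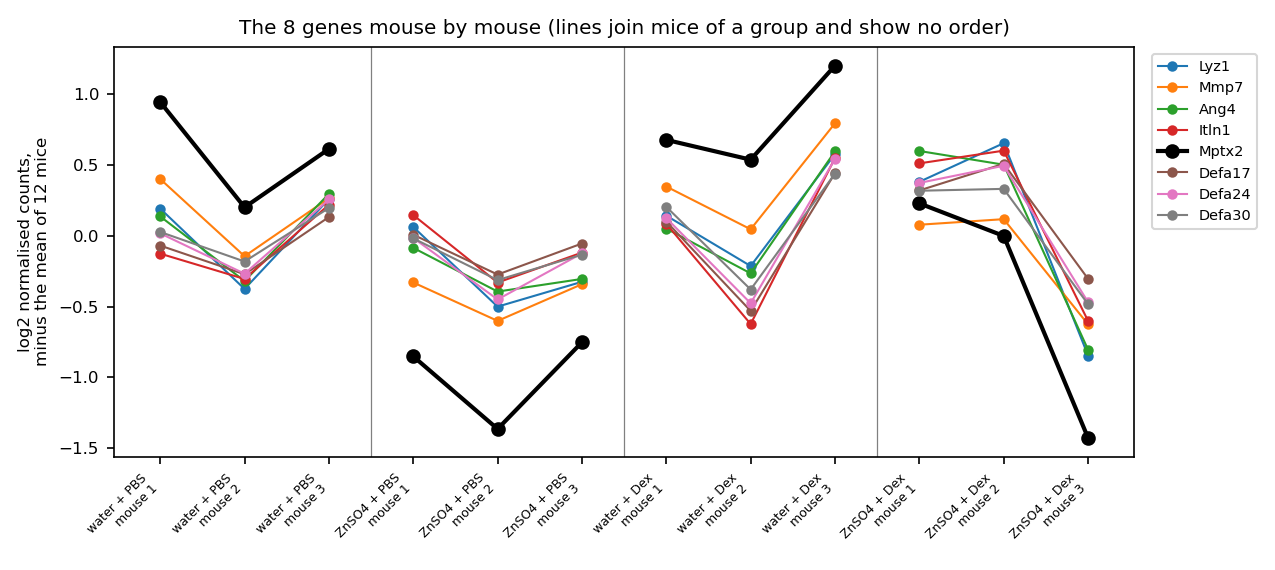
Log2 normalised counts of each gene minus its mean over 12 mice (y axis) for every mouse (x axis), with lines joining mice of the same group for legibility only. The 8 genes are lowest in mouse 2 of the first 3 groups and in mouse 3 of the ZnSO4 + Dex group, and Mptx2 lies above the others in all 6 water mice and below them in all ZnSO4 mice but ZnSO4 + Dex mouse 1, where Mmp7 is lower.

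Counting Mptx2 against Lyz1 in the same library removes what they share. The ratio was chosen after the values had been seen. Mptx2 had 10.2, 9.03 and 7.74 reads per 100 Lyz1 reads in water + PBS mice and 3.22, 3.33 and 4.51 in ZnSO4 + PBS mice. In Dex mice it had 8.78, 10.2 and 9.34 with water and 5.45, 3.85 and 4.05 with ZnSO4. All 6 water mice were above all 6 ZnSO4 mice, a separation that 0.659% of the tested genes showed when divided by Lyz1 in the same way. The water groups overlapped with each other, and so did the ZnSO4 groups. For Mmp7 the group means were 3.58 ± 0.300, 2.88 ± 0.379, 3.77 ± 0.0739 and 2.86 ± 0.795 reads per 100 Lyz1 reads (water + PBS, ZnSO4 + PBS, water + Dex, ZnSO4 + Dex, n = 3 each), and the 6 water and 6 ZnSO4 mice overlapped. The PBS groups did not overlap in this ratio (3.23 to 3.78 with water, 2.45 to 3.18 with ZnSO4). In normalised counts such a separation held for 25.3% of all tested genes. In the Dex groups ZnSO4 + Dex mouse 3, at 3.75, alone reached into the water range of 3.71 to 3.85.

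**Figure D4:**
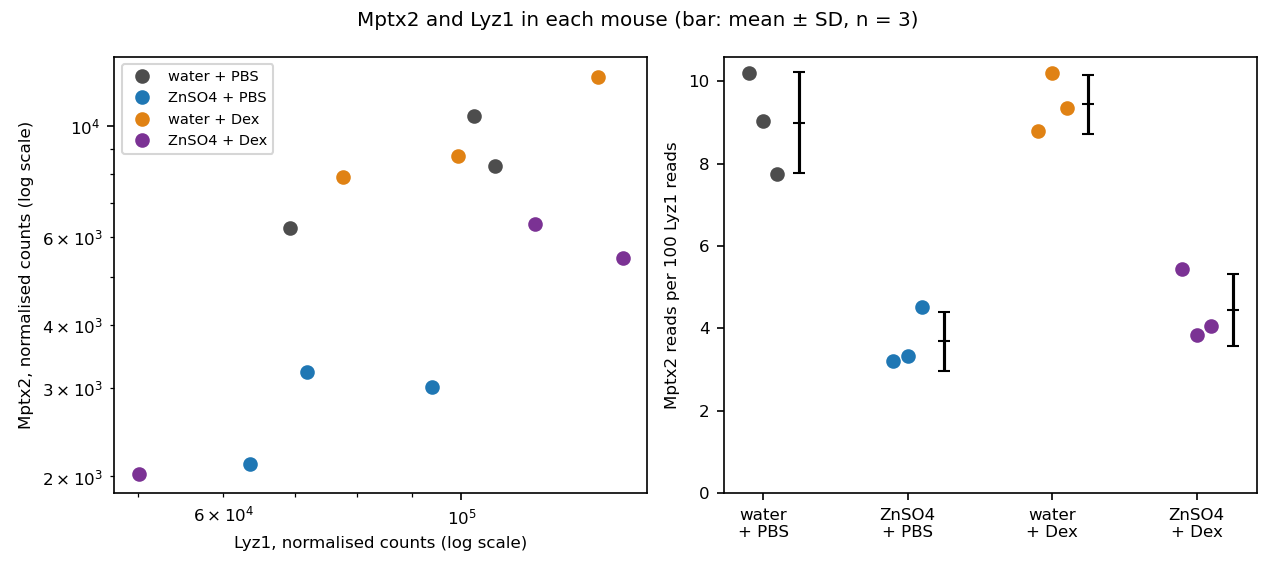
Left, normalised counts of Mptx2 (y axis) against those of Lyz1 (x axis), both on log scales, 1 point per mouse. Right, Mptx2 reads per 100 Lyz1 reads by group with mean ± SD of 3 mice. The 6 water mice lie between 7.74 and 10.2 and the 6 ZnSO4 mice between 3.22 and 5.45.

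A fit with the mean log2 CPM of 23 other alpha-defensin genes as a covariate was made as a further comparison. It too was chosen after the values had been seen, and it takes these defensins as a measure of Paneth cell RNA in the piece. The 23 include pseudogene copies and Defa31, whose stretches of 75 bases all occur in other genes. They also include Defa34, which was itself called lower with zinc in PBS mice, so their mean is not a measure of Paneth cell RNA alone. Mptx2 was lower with zinc by an LFC of -1.19 (SE 0.21, adjusted p = 0.014 in edgeR) in PBS mice, -1.23 (SE 0.20, adjusted p = 0.0082) in Dex mice and -1.21 (SE 0.14, adjusted p = 5.0e-04) over both, and all 3 were called. In this fit 1.78%, 1.91% and 3.02% of all tested genes were called. Mmp7 had an LFC of -0.45 (SE 0.07, adjusted p = 0.0017 in edgeR) over both injections. The adjusted p was under 0.05 without regard to size for 13.8% of the genes there. The other 6 members stayed above an adjusted p of 0.05, Defa17 being the nearest (LFC 0.20, adjusted p = 0.062).

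The genes whose pattern over the 12 mice was most like that of the members' mean, among 14963 other genes with a mean CPM of at least 1, were alpha-defensin copies. They were Gm7849 (Defa42 in RefSeq, r = 0.971), Gm15292 (Defa40), Defa35, the pseudogene Defa-ps7 and Defa26 (r = 0.959). Of the 8 members in this mean, 3 are defensins themselves, and the copies share sequence, so part of the likeness is built in. For Lyz1 they were Defa35, Defa5 and Defa26, and for Ang4 they were Defa26, C4bp and Defa35. Defa22 and Defa21 came first for both Itln1 (then Samd5) and Defa17 (then Clps). Defa26 came first for both Defa24 (then Wnt3 and Defa21) and Defa30 (then Defa21 and Habp2). For Mmp7 the nearest gene was Gm15293 (Defa41 in RefSeq, r = 0.973), followed by Pla2g2f (0.939) and Nucb2 (0.931). For Mptx2 they were Olfr418 (r = 0.969), Cfi (0.963) and Gm15293 (0.953).

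Olfr418, annotated as an olfactory receptor gene, lies on the plus strand of chromosome 1 (173266001 to 173273994) and ends 387 bases before Mptx2, which runs towards it on the opposite strand. It had 65.3 ± 15.7 normalised counts in the 6 water mice and 18.5 ± 10.5 in the 6 ZnSO4 mice, with an LFC of -1.87 (SE 0.27, adjusted p = 0.0012 in edgeR). Whether these reads belong to Mptx2 transcripts was not tested. Cfi, complement factor I, a protease that cuts activated complement proteins, had 114 ± 30.1 and 31.9 ± 17.3 normalised counts and fell with an LFC of -1.93 (SE 0.24, adjusted p = 4.5e-04). Gm15293 had 197 ± 39.2 and 127 ± 36.9, with an LFC of -0.64 (SE 0.18, adjusted p = 0.036). These 3 genes were picked for their likeness to Mptx2, so their zinc effects repeat its pattern and do not test it.

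The 250 bases before the RefSeq starts of Mptx2 (chr1:173277757-173278006, minus strand), Mmp7 (chr9:7691840-7692089, plus strand) and Defa30 (chr8:21134400-21134649, plus strand) in GRCm38.p6 are shown 5′ to 3′, as the start regions of Mptx2, which was called for zinc, of Mmp7, whose zinc interval lay below 0 without a call, and of a defensin whose interval included 0. Capitals mark the exact string TATAAA, a form of the TATA box, and CTTTGA or its reverse complement, the core bound by TCF factors of the Wnt pathway.
Mptx2: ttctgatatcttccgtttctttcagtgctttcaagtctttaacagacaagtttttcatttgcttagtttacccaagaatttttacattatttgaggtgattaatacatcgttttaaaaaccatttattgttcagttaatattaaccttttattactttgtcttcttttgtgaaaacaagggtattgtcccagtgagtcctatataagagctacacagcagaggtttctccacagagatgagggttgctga
Mmp7: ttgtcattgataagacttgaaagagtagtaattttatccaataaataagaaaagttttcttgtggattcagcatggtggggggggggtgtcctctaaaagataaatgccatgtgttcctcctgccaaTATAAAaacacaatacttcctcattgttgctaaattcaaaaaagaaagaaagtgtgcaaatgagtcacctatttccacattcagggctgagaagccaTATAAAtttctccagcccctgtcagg
Defa30: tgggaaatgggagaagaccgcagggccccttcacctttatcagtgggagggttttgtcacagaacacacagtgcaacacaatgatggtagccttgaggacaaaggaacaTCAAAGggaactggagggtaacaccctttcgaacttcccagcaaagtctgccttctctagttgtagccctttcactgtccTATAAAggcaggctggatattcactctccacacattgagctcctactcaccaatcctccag
RefSeq start regions were at hand for 6 of the 8 members. In windows of 300 bases (250 before to 50 after the start), searched on both strands, TATAAA was found in Mmp7 and Defa30 and in 13.6% of 32851 promoters, and CTTTGA in the same members and in 16% of promoters. The core of the metal response element, TGCGCNC or TGCACNC, was found in Mmp7 and in 25.7% of promoters. TTCNNNGAA, bound by STAT factors, was found in Ang4 and in 8.3% of promoters. None of these exact strings occurred in the window of Mptx2. Variants of the TATA box were not searched for, and the printed Mptx2 stretch holds tatataag, so a TATA box there is not excluded.

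The rest of the alpha-defensin family held 37 further genes by symbol, of which 7 had no count and 23 were tested. They include pseudogenes (Defa-ps symbols), among them all 7 without a count. Copies under other symbols, such as Gm7849, Gm15292 and Gm15293, are left out. For zinc in PBS mice 1 of the 23 was called, in the lower direction (Defa34), as were 0.954% of all tested genes. The median LFC was -0.27 against -0.01 over all genes. Defa34 had 1448 ± 236 normalised counts with water and 723 ± 155 with ZnSO4 (0.499 of the water level in the fit, adjusted p = 0.035 in edgeR). Over both injections none was called, against 2.71% of all genes, and the median was -0.13. The family genes with the highest counts, Defa21, Defa22, AY761184 and Defa29, had LFC of -0.06, 0.00, -0.63 and -0.36 over both injections. Defa31 was the only one called with Dex in water mice (lower, LFC -3.45, 4.42% of all genes called). It was also the only one called with zinc in Dex mice (higher, LFC 3.82, 1.90% of all genes called). Its raw counts were 4, 5 and 11 in the water + Dex mice and 6 in ZnSO4 + PBS mouse 1, against 47 to 150 in the other 8 mice, and 100% of its stretches of 75 bases also occur in other genes. With Dex in ZnSO4 mice 0 of 23 were called, against 5.81% of all genes, with a median LFC of 0.37.

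**Figure D5:**
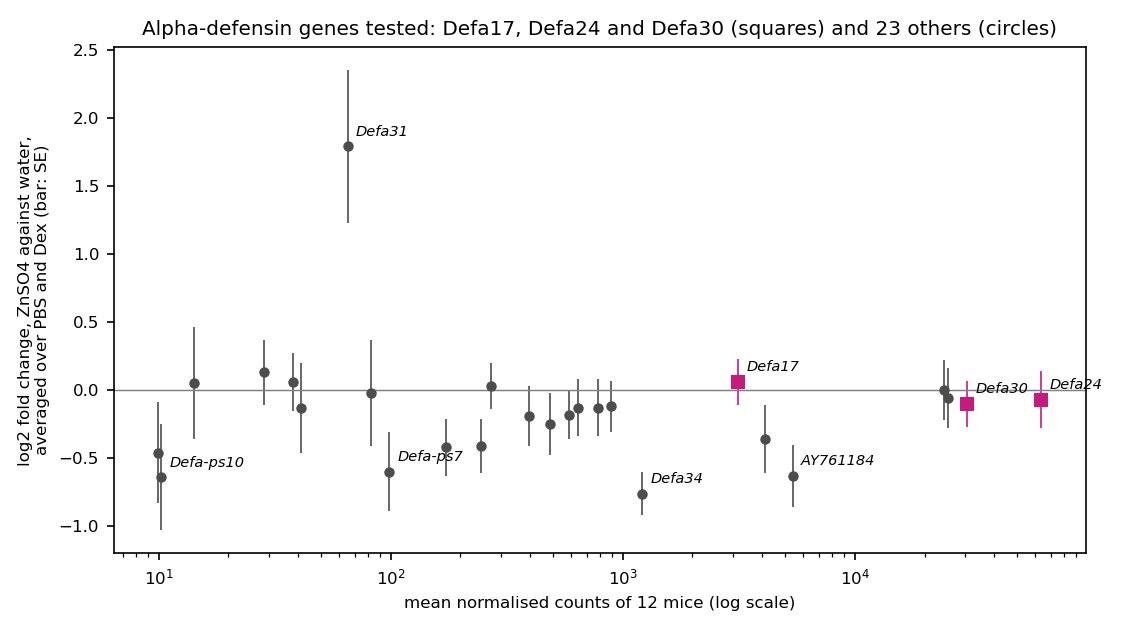
LFC for ZnSO4 against water averaged over both injections (y axis, log2 scale, bar SE) against the mean normalised counts of 12 mice (x axis, log scale) for the tested alpha-defensin genes and pseudogenes, with Defa17, Defa24 and Defa30 as squares. The 3 squares lie between -0.10 and 0.06, Defa34 at -0.76 and Defa31 at 1.79.

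Other Paneth cell and crypt genes are given from lists written with earlier results of these data known. Of 9 other secreted products in the file, none was called with Dex in water or ZnSO4 mice (4.42% and 5.81% of all genes called) or over both (6.31%). With zinc, where 1.70% and 1.90% of all genes were called, 2 were called lower in PBS mice and again in Dex mice. They were the C-type lectins Reg3g (LFC -3.14 and -2.82, adjusted p = 0.0014 and 0.0023 in edgeR) and Reg3b (-2.01 and -1.73, adjusted p = 0.0095 and 0.017), which enterocytes make as well. Reg3g had 154290, 109954 and 68946 normalised counts in water + PBS mice and 9081, 13115 and 15714 in ZnSO4 + PBS mice. Lypd8 (-0.79 and -0.61) and Pnliprp2 (0.54 and 0.78) were not called. Without the cut-off on size, 3 of the 9 were lower with zinc in PBS mice at an adjusted p under 0.05 (edgeR). Over both injections 4 were lower at that threshold, where 12.8% of all genes passed in either direction. With Dex in ZnSO4 mice 1 of the 9 was higher at that threshold. The gene copies Lyz2, Ang and Mptx1 were not called in any comparison. Mptx1, the copy nearest to Mptx2, had group means of 10.6 to 19.1 normalised counts.

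Of 16 genes for fate, granules and niche, 1 was called higher with zinc in both PBS and Dex mice (1.70% and 1.90% of all genes called). Another 1 was called lower with Dex in both water and ZnSO4 mice (4.42% and 5.81% called). The first was Slc30a2, whose LFC was 1.63 (SE 0.18, adjusted p = 9.0e-04 in edgeR) and 1.58 (SE 0.18, adjusted p = 0.0011), with 787, 542 and 532 normalised counts in water + PBS mice and 2235, 1543 and 1964 in ZnSO4 + PBS mice. The second was Dll4, whose LFC was -1.17 (SE 0.13, adjusted p = 1.5e-04) and -0.96 (SE 0.13, adjusted p = 4.7e-04). Xbp1 (-0.41 and -0.39), Cd24a (-0.25 and -0.03) and Fzd5 (-0.03 and -0.15), the other genes of this list with the highest counts, were not called for zinc in PBS or Dex mice.

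Markers of other cells in the same pieces were summed per mouse. Fabp6, the bile acid binding protein of the ileum, had 40672 to 88620 normalised counts in the 12 mice, as the labelled tissue would have. Of the goblet cell list, Muc2, the secreted mucin, was called higher with zinc in PBS and in Dex mice (LFC 0.88 and 0.83, 1 of 7 genes). In these comparisons 1.70% and 1.90% of all tested genes were called. Of the stem cell list, Slc12a2 was called higher with Dex in water mice and over both waters (LFC 0.86 and 0.80, 1 of 6). The stem cell list did not rise as a whole with Dex in water mice. There 4 of its 6 estimates were below 0 (median LFC -0.22), 2 of them at an adjusted p under 0.05 (edgeR). Of the enterocyte list, Slc5a1 was called higher with Dex in water and in ZnSO4 mice (0.97 and 1.11, 1 of 8). For Dex, 7 of the 8 enterocyte estimates were above 0 in water mice (median 0.32) and 6 were below 0 in ZnSO4 mice (-0.17). With Dex, 4.42% of all tested genes were called in water mice, 5.81% in ZnSO4 mice and 6.31% over both. No macrophage (8), B cell (7) or smooth muscle (6) gene was called. For zinc in PBS and in Dex mice, the estimates were above 0 for all 7 goblet cell genes (median LFC 0.25 and 0.31) and all 6 smooth muscle genes (0.36 and 0.38), and below 0 for all 8 macrophage genes (-0.30 and -0.13). The summed goblet cell markers did not overlap between water and ZnSO4 mice, with 149502 to 151723 against 165842 to 201344 normalised counts in PBS mice and 169179 to 178828 against 192684 to 227619 in Dex mice. The summed smooth muscle markers overlapped in PBS mice (14568 to 19021 and 17110.1 to 30818) and did not in Dex mice (18286 to 19450.2 and 20889 to 30347). Among single tested genes, 25.3% separated water from ZnSO4 mice with PBS and 25.9% with Dex, so such a separation is common. The part of these marker differences in the zinc results was not tested. The summed B cell markers ranged from 123 to 6605 normalised counts, overlapped between all 4 groups, and had a median LFC of -0.49 and -1.77 for zinc in PBS and Dex mice and of -1.68 and -2.95 for Dex in water and ZnSO4 mice. With their mean as a covariate, Mptx2 was lower with zinc by -1.69 (adjusted p = 0.0054 in edgeR) in PBS mice and by -1.30 (adjusted p = 0.020) in Dex mice, and both were called.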

How the data were processed

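Raw counts per gene were deposited by the authors for 12 ileum libraries (stranded TruSeq, single-end), with reads mapped to mm10 by HISAT 2.0.4 and counted by featureCounts, multimapping reads excluded. The annotation release and strand setting are not given in the sources used here. Symbols and exons came from GENCODE M21. R 4.3.3 and edgeR 4.0.16 were used: filterByExpr (minimum count 10), TMM factors, 1 quasi-likelihood model with 4 group means, Benjamini-Hochberg over 15938 genes. Genes were called at an adjusted p under 0.05 together with a change above 0.8 on the log2 scale, the interaction on adjusted p alone. DESeq2 1.42.0 served as an alternative. Log2 CPM used a prior count of 2. Intervals cover the spread between mice only. The members and lists were chosen with earlier results of these data known. Beside the members, genes called in any comparison, up to 4 per list with the highest counts, and the nearest in pattern (5 to the mean, 3 to each member) are named. Lists comprised alpha-defensins, other secreted products, gene copies, fate, granule and niche genes, and markers of goblet, stem, enterocyte, macrophage, B and smooth muscle cells.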

Additional observations from a re-analysis of the deposited data

How the results depend on the processing

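For zinc in PBS mice, 1 member was called in the reported fit and 0 with the replicate block (Mptx2, LFC -1.57, adjusted p = 0.052 in edgeR), and leaving out 1 mouse at a time gave 0 to 1. For zinc in Dex mice the count went from 0 to 1 with the B cell covariate and 1 with the other defensins as covariate (Mptx2 each time). For Dex in ZnSO4 mice it lay between 0 and 2 with 1 mouse left out. Over both injections the count for zinc went from 1 to 2 with no cut-off on the LFC, which added Mmp7. The other 146 counts under alternatives stayed the same, and the replicate block changed no other call. The causes were not tested. The replicate numbers did not pair the mice: residuals of same-numbered mice had a median correlation of -0.0557 (18 pairs), against 0.0225 for other numbers (36 pairs). Total counts as scale moved the median LFC of all genes to -0.13 for Dex in water mice and 0.12 for zinc in Dex mice. With 3 mice per group an exact permutation test of 1 value cannot go below p = 0.1.

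The LFC of members that were not called changed sign in some settings, and no called LFC did. With total counts only, these were Itln1 0.02 and Defa17 0.01 for zinc in PBS mice, Lyz1 0.13 and Defa30 0.10 for zinc in Dex mice, Defa24 0.03 for zinc averaged, Ang4 -0.00, Defa24 -0.01 and Defa30 -0.01 for Dex in water mice. With upper-quartile factors, these were Lyz1 0.04 and Defa30 0.02 for zinc in Dex mice. With the B cell covariate, these were Ang4 -0.08 and Defa24 -0.03 for zinc in Dex mice, Itln1 -0.01 and Defa17 -0.00 for zinc averaged, Lyz1 -0.03, Ang4 -0.08, Itln1 -0.02, Mptx2 -0.05 and Defa24 -0.05 for Dex in water mice. With the other defensins as covariate, these were Lyz1 0.12, Ang4 0.10, Itln1 0.37, Defa17 0.25, Defa24 0.14 and Defa30 0.11 for zinc in PBS mice, Ang4 -0.05 for zinc in Dex mice, Ang4 0.02, Defa24 0.09 and Defa30 0.03 for zinc averaged, Lyz1 -0.10, Ang4 -0.05, Itln1 -0.15, Defa17 -0.02, Defa24 -0.03 and Defa30 -0.09 for Dex in ZnSO4 mice, Itln1 -0.04 and Defa30 -0.00 for Dex averaged, Lyz1 -0.25, Mmp7 -0.22, Ang4 -0.15, Itln1 -0.23, Mptx2 -0.03, Defa17 -0.10, Defa24 -0.10 and Defa30 -0.17 for the interaction. With 1 mouse left out at a time, the lowest and highest LFC follow. For zinc in PBS mice the ranges were Itln1 -0.17 to 0.13 and Defa17 -0.14 to 0.07. For zinc in Dex mice the ranges were Lyz1 -0.31 to 0.32, Ang4 -0.18 to 0.38, Itln1 -0.07 to 0.49, Defa17 -0.06 to 0.40, Defa24 -0.15 to 0.34 and Defa30 -0.22 to 0.20. For zinc averaged the ranges were Lyz1 -0.30 to 0.02, Ang4 -0.25 to 0.03, Itln1 -0.04 to 0.24, Defa17 -0.05 to 0.18, Defa24 -0.17 to 0.07 and Defa30 -0.19 to 0.01. For Dex in water mice the ranges were Lyz1 -0.08 to 0.31, Ang4 -0.17 to 0.28, Itln1 -0.18 to 0.38, Mptx2 -0.02 to 0.41, Defa17 -0.13 to 0.33, Defa24 -0.17 to 0.32 and Defa30 -0.09 to 0.29. For the interaction the ranges were Lyz1 -0.02 to 0.60, Mmp7 -0.09 to 0.29, Itln1 -0.05 to 0.51, Defa17 -0.03 to 0.43 and Defa30 -0.06 to 0.37.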
